A study of Mus musculus with 8 samples.

Results

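The genes described here are 9 importin genes, 5 encoding importin alpha adaptors (Kpna1, Kpna2, Kpna3, Kpna4 and Kpna6) and 4 encoding receptors of the importin beta family (Kpnb1, Ipo5, Ipo7 and Tnpo1), of 20888 genes measured. They were chosen by symbol with their CPM in these same libraries known, and Kpna2 is set against the other 8 because of its difference between the groups. That difference is therefore given as a description, with its errors and no p-value, and where these genes are counted past a threshold nothing is read from the count. The study compared leukaemic blasts between mice with and without the histone demethylase gene Kdm6b, and its title names NOTCH1-induced stress, NOTCH1 being a receptor gene often mutated in this leukaemia. RNA was sequenced from T-ALL blasts (cells of T cell acute lymphoblastic leukaemia) sorted from peripheral blood. The 4 control libraries carry the genotype Kdm6b wild type and the 4 knockout-labelled libraries the genotype Kdm6b homozygous mutant. Both groups come from Vav-CRE mice, in which the Vav promoter drives Cre in blood-forming cells, so a deletion is not limited to T cells. The labels give no age, strain or inducing event for the leukaemia and leave unsaid how many mice stand behind the libraries of each group, so the spread between libraries may be partly technical.

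Importins carry proteins from the cytoplasm into the nucleus. An importin alpha binds the nuclear localisation signal of a cargo and is itself bound by importin beta, which moves the complex through the nuclear pore, and the GTPase Ran in its GTP form releases the cargo inside. In mitosis, importins also hold spindle assembly factors inactive away from the chromosomes. Kpna2 is the importin alpha gene best known for high expression in dividing cells.

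The values are CPM, in which read counts are scaled to give each library an equal total. Estimated from the spacing of low values, the control libraries held 18263010 to 22070870 reads and the knockout-labelled ones 14017970 to 18244210. Mean Kdm6b was 514 ± 135 CPM for the controls against 587 ± 92.2 CPM for the other group (SD, n = 4 per group), a log2 change of 0.22 ± 0.21 (SE; limma adjusted p = 0.599, exact two-sided permutation p = 0.514, the smallest possible being 0.0286). A gene-level value includes exons outside any deleted part and so does not check the label. Xist ran from 264 to 455 CPM with the knockout label and reached at most 0.831 CPM without it, and the Y-linked gene Ddx3y ran from 117 to 195 CPM among controls and reached at most 0.548 CPM elsewhere, so the sex of the mice and the label cannot be told apart. All 13 T cell markers were detected, and their summed level was 13047 to 17057 CPM in the controls and 15230 to 17126 CPM in the knockout-labelled libraries. The summed markers of other blood cells were lower: 11.8 to 17.1 and 12.3 to 19.3 CPM for B cells, 15.6 to 56.1 and 36.4 to 163 CPM for NK cells, 96.3 to 276 and 93.1 to 229 CPM for myeloid cells, 40.2 to 772 and 97.7 to 553 CPM for erythroid cells and 1.22 to 3.02 and 1.85 to 4.94 CPM for platelets, in controls and knockout-labelled libraries. The myeloid sum joins markers that went opposite ways: S100a8 and S100a9 were at 10.7 ± 5.44 and 4.79 ± 2.49 CPM in controls and at 38.5 ± 28.4 and 20.2 ± 15.4 CPM in the others, and Itgam and Csf1r at 31.4 ± 8.14 and 15.8 ± 9.34 CPM and at 22.002 ± 1.67 and 7.25 ± 4.04 CPM. S100a9 did not overlap between the groups, and neither did the T cell markers Cd2, Cd3d, Cd3e and Cd3g. Each of these was higher with the knockout label, and the other markers of these cell types overlapped. Of all genes tested, 13.2% did not overlap. None of these markers was called at an adjusted p below 0.05 by limma, their part in the results was not tested, and in bulk RNA fewer cells of a type and less RNA per cell cannot be told apart.

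The Kpna2 row cannot be read without its near-identical copies elsewhere in the genome. Kpna2 lies on chromosome 11 (GRCm38, the mm10 build, chr11:106988629-106999541, minus strand; exons of 2873 bases in all). Gm10184, on chromosome 17 (chr17:89908462-89910449, minus strand), has a transcript that aligned to that of Kpna2 over 1968 bases with 2 mismatches (99.9% identity), and both mismatches fall in the coding sequence of 1590 bases. Gm10184 is annotated as protein coding in GENCODE and as a pseudogene in RefSeq. Gm10259, a processed pseudogene on chromosome 3, was 99.8% identical over its 1590 aligned bases, and Gm12919, on chromosome 4, was 96.9% identical. The following 60 bases of coding sequence, from exons of the GENCODE annotation, hold 1 of the 2 differences between Kpna2 and Gm10184. They are shown because a read lying within this stretch can be assigned to one gene or the other only by the base in capitals.
Kpna2 (chr11:106991229-106991288, minus strand): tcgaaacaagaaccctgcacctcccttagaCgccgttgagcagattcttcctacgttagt
Gm10184 (chr17:89909547-89909606, minus strand): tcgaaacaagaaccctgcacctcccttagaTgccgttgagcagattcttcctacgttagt
Counted from 1 at the 5′ end of the stretch, the substitution from Kpna2 to Gm10184 is C31T. Of the 1541 possible 50-base words in the Kpna2 coding sequence, 1474 (95.7%) occur unchanged in a copy, as do 97.1% of those 3′ of it and 49.0% of those 5′ of it. Over all annotated Kpna2 transcripts, 62.6% of words are shared with another gene. The other importin alpha genes gave 0 to 2 such shared words, and of their transcripts only that of Kpna3 aligned to Kpna2, over 68 bases. The sources used here do not give how the authors' counting dealt with reads that match several genes.

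The Kpna2 row was lower in every knockout-labelled library than in any control. It stood at 57.6, 31.9, 54.3 and 74.6 CPM in controls 1 to 4 and at 8.76, 5.48, 5.22 and 10.6 CPM in knockout-labelled replicates 1 to 4. The means were 54.6 ± 17.5 and 7.53 ± 2.63 CPM (SD, n = 4), a 7.26-fold difference, also given as 7.26 in the authors' deposited table, and a log2 change of -2.70 ± 0.28 (SE). Knockout-labelled replicate 2 had the fewest estimated reads on this row, about 77, against the 3 reads taken as the limit of detection. Across the 13840 genes tested, 7.97% were lower without overlap between the groups.

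Gm10184 held most of the reads of this family. It was at 441.3, 273, 412 and 617 CPM in controls 1 to 4 and at 193, 183, 308 and 251 CPM in knockout-labelled replicates 1 to 4. Its means were 436 ± 141 and 234 ± 57.8 CPM (SD, n = 4), with a log2 change of -0.87 ± 0.24 (SE) that was not called, and the groups overlapped, because knockout-labelled replicate 3 stood above control 2. Gm10259 was at 9.78 ± 5.46 and 4.08 ± 2.11 CPM, not called, and Gm12919 at 0.151 ± 0.123 and 0.161 ± 0.120 CPM, around the 0.136 to 0.214 CPM that 3 reads are worth.

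Summing Kpna2 with its 3 copies, a step chosen after the data had been seen, gave a smaller difference. The sum was at 507 CPM in control 1, 308 in control 2, 483 in control 3 and 702 in control 4, and at 206, 189.7, 320 and 266 CPM in knockout-labelled replicates 1 to 4. The means were 500.3 ± 161 and 245 ± 59.5 CPM (SD, n = 4), a 2.04-fold difference and a log2 change of -0.996 ± 0.236 (SE), and control 2 lay below knockout-labelled replicate 3. With single libraries left out the log2 change of the sum ran from -1.21 to -0.81.

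The Kpna2 row's share of the sum separated the groups completely. It was 11.4, 10.4, 11.2 and 10.6% in controls 1 to 4 and 4.25, 2.89, 1.63 and 4.01% in knockout-labelled replicates 1 to 4 (10.9 ± 0.485% and 3.19 ± 1.20%, SD, n = 4). The controls lay close together in this share, while their summed levels differed by 2.28-fold. Since Kpna2 was chosen for its difference between these groups, the separation of its share is a description. Which part of the sum comes from the Kpna2 gene was not tested.

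**Figure D1:**
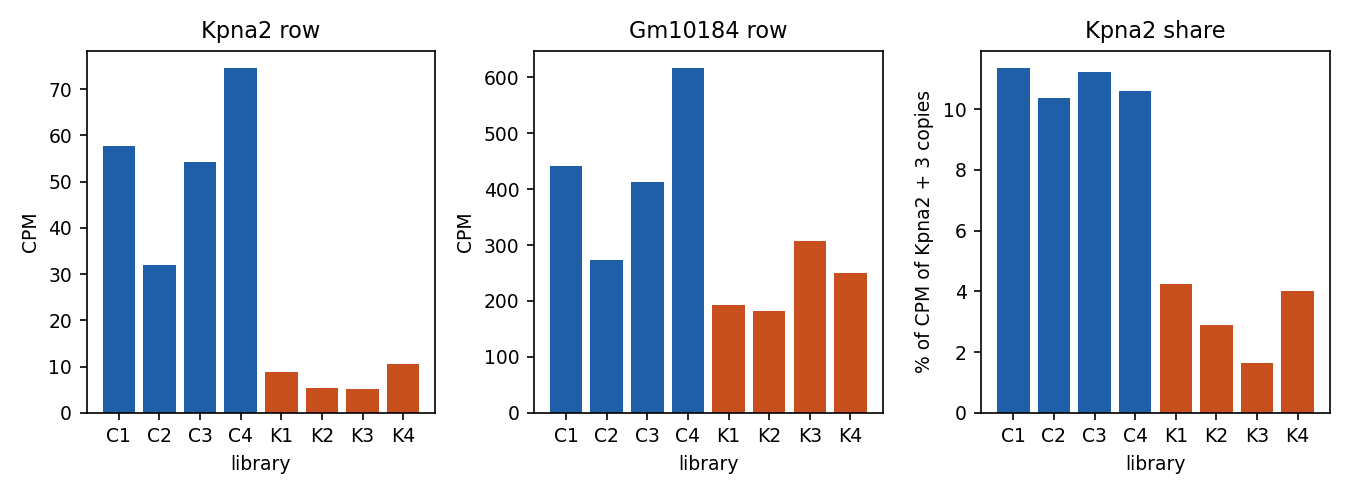
CPM of the Kpna2 row (left) and the Gm10184 row (middle), and the Kpna2 row as a percentage of the summed CPM of Kpna2 and its 3 copies (right), in control libraries C1 to C4 (blue) and knockout-labelled libraries K1 to K4 (orange), each bar 1 library. The share is 10.4 to 11.4% in controls and 1.63 to 4.25% in the others, while Gm10184 overlaps between the groups.

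In each of the other importin alpha genes the groups overlapped. Kpna1, whose product imports STAT proteins among others, stood at 66.7, 74.8, 70.1 and 61.0 CPM in the controls and 78.7, 91.1, 72.2 and 59.2 CPM in the knockout-labelled libraries, and the groups overlapped (log2 change 0.13 ± 0.14, SE). Kpna3 stood at 54.2, 54.9, 56.4 and 74.2 CPM and at 50.1, 60.1, 61.3 and 40.4 CPM (log2 change -0.18 ± 0.16). Its highest and lowest values were in control 4 and knockout-labelled replicate 4. Kpna4, a close relative of Kpna3, stood at 63.4, 66.0, 60.1 and 44.3 CPM and at 79.3, 78.6, 71.4 and 51.9 CPM (log2 change 0.26 ± 0.17). Knockout-labelled replicates 1 to 3 lay above every control and replicate 4 did not. Kpna6 had the lowest CPM of the other alpha genes, at 29.7, 30.1, 33.5 and 23.3 CPM and at 30.4, 30.3, 18.4 and 28.2 CPM (log2 change -0.13 ± 0.19).

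Among the receptors, Kpnb1, which encodes importin beta itself, was the only gene whose groups did not overlap. It stood at 129.9, 124, 121 and 130.4 CPM in controls 1 to 4 and at 98.5, 119, 113 and 100.3 CPM in knockout-labelled replicates 1 to 4. The means were 126 ± 4.62 and 108 ± 9.995 CPM (SD, n = 4) and the log2 change was -0.23 ± 0.11 (SE). Its exons overlap the antisense gene Gm11583 over 466 bases, whose reads cannot be told apart without a stated strand setting. Ipo5, which imports ribosomal proteins and histones, stood at 62.5, 48.9, 64.8 and 142.6 CPM and at 41.9, 49.1, 60.1 and 47.5 CPM (log2 change -0.56 ± 0.27). Control 4 stood far above the other controls, and without it the log2 change was -0.24. Ipo7, a receptor for ribosomal proteins and linker histone, stood at 50.8, 40.6, 53.2 and 82.0 CPM and at 41.7, 39.4, 56.0 and 30.5 CPM (log2 change -0.41 ± 0.22), and again control 4 was highest, with a log2 change of -0.22 without it. Tnpo1, transportin, which imports RNA-binding proteins, stood at 95.1, 90.4, 85.1 and 99.0 CPM and at 90.0, 91.7, 100.7 and 60.8 CPM (log2 change -0.13 ± 0.15). Of its 50-base words 10.7% are shared, mainly with the pseudogene Gm6493, at 6.11 ± 1.20 and 5.94 ± 1.61 CPM.

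Of the 9 genes, 1 (Kpna2) lay past the threshold used for all genes, a limma adjusted p below 0.05, where 3.53% of all genes tested were called, 2.32% lower and 1.21% higher, and 2 did not overlap between the groups, where 13.2% of all genes did not. Since the genes were chosen with this contrast known, Kpna2 could hardly fall elsewhere and nothing is read from these counts. The 8 relatives ranged from -0.56 to 0.26 in log2 change, with a median of -0.16 beside -0.03 over all genes. Kpna1 and Kpna4 were higher and the other 6 lower, also under quantile normalization and median-ratio scaling, whereas Kpna6 was higher without knockout-labelled replicate 3 and Tnpo1 without knockout-labelled replicate 4. The log2 ratio of the Kpna2 row to the mean of its relatives was -0.14, -0.91, -0.24 and 0.05 in controls 1 to 4 and -2.62, -3.33, -3.35 and -2.09 in knockout-labelled replicates 1 to 4, a difference of -2.54. With the copies summed into Kpna2 that difference was -0.84.

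**Figure D2:**
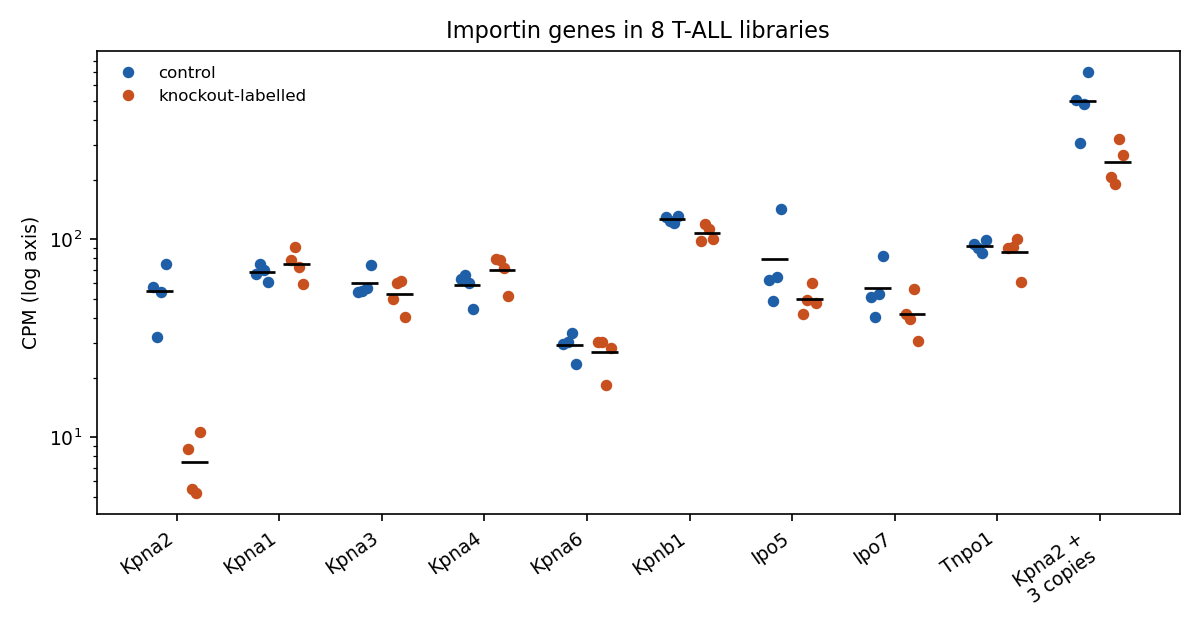
CPM (log axis) of the 9 importin genes and of Kpna2 summed with its 3 copies, each point 1 library (controls blue, knockout-labelled orange) and each bar a group mean. Kpna2 separates by a wide margin (31.9 to 74.6 against 5.22 to 10.6 CPM), Kpnb1 by a narrow one, and the other 7 genes and the sum overlap.

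Levels can be set side by side only per length. Divided by exon length in kb, Kpnb1 had the highest level in the controls, at 19.2 ± 0.701 CPM per kb, followed by Kpna2 at 19.0 ± 6.11, Kpna3 at 13.9 ± 2.22, Ipo5 at 13.3 ± 7.09, Tnpo1 at 8.24 ± 0.535, Kpna1 at 8.03 ± 0.683, Kpna4 at 6.54 ± 1.09, Ipo7 at 5.07 ± 1.59 and Kpna6 at 4.34 ± 0.636 CPM per kb (SD, n = 4). Each neighbouring pair in this order overlapped between libraries. In the knockout-labelled libraries Kpnb1 was again highest, at 16.4 ± 1.52 CPM per kb, and did not overlap Kpna3, next at 12.3 ± 2.27. Kpna1 (8.87 ± 1.57), Ipo5 (8.27 ± 1.27), Kpna4 (7.86 ± 1.43) and Tnpo1 (7.65 ± 1.55) lay close together, and Tnpo1 did not overlap Kpna6, at 3.99 ± 0.848 CPM per kb. The Kpna2 row moved from rank 2 to rank 9, at 2.62 ± 0.916 CPM per kb, but overlapped the gene above it, Ipo7, at 3.75 ± 0.946. Summed with its copies over the same length, Kpna2 was at 174 ± 56.2 and 85.4 ± 20.7 CPM per kb.

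The other genes of nuclear transport were called about as often as genes at large, but as a list they lay lower. Of 53 tested, 1 was called lower and 0 higher by limma at an adjusted p below 0.05, where 2.32% of all genes were called lower and 1.21% higher. Without adjustment, 12 lower and 1 higher had a p below 0.05, where 11.7% of all genes were lower and 7.62% higher. Their median log2 change was -0.25, or -0.14 without control 4, and 45 of 53 were below 0, or 41 under quantile normalization and 42 under median-ratio scaling. Over all genes the median was -0.03, and 7578 of 13840 were below 0. The called gene was Nup62, which encodes a nucleoporin of the central channel of the pore. It stood at 152, 134, 152 and 264 CPM in the controls and at 68.6, 70.5, 102 and 84.7 CPM in the knockout-labelled libraries. It fell by 1.06 on the log2 scale (SE 0.21, limma adjusted p = 0.0216), and the groups did not overlap. Leaving out control 1 or knockout-labelled replicate 1, 2 or 4 ended the call, and the highest limma adjusted p was then 0.0810. Its exons overlap those of Atf5 on the opposite strand and of Il4i1. The other 28 nucleoporins were not called (list median -0.25).

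The remaining importins gave 0 calls of 7, with 3 at an unadjusted p below 0.05 (median log2 change -0.17). Of all genes tested, 19.3% had an unadjusted p below 0.05, a share that applies to each short list of this paragraph. Ipo9, an import receptor for histones and actin, was at 115 ± 7.20 and 93.4 ± 6.72 CPM (limma adjusted p = 0.153), and Ipo11 at 38.6 ± 4.31 and 30.1 ± 2.31 CPM (adjusted p = 0.177). Neither overlapped between the groups. The third, Ipo13, named after its values were seen, was on the other side, at 20.3 ± 2.63 and 25.7 ± 1.33 CPM (log2 change 0.33 ± 0.14, limma adjusted p = 0.231), also without overlap. Absence of overlap was found in 13.2% of all genes tested, and nothing is read from these counts in so short a list. The 3 import adaptors gave 0 calls, and 0 at an unadjusted p below 0.05: Hikeshi, the import carrier of HSP70 proteins, was at 56.7 ± 9.73 and 63.5 ± 8.15 CPM, and Nutf2, which returns Ran to the nucleus, at 25.1 ± 10.8 and 19.99 ± 4.74 CPM, with 39.2% of its words shared with other genes. Of 7 exportins 0 were called, with 1 at an unadjusted p below 0.05 (median -0.26). Xpo5, the exportin of microRNA precursors, was at 64.6 ± 5.41 and 51.9 ± 8.25 CPM, and the tRNA exportin gene Xpot at 19.0 ± 4.27 and 14.1 ± 2.56 CPM. Of the 7 Ran cycle genes 0 were called, with 1 at an unadjusted p below 0.05 (median -0.32). That gene, Rcc1, which encodes the chromatin-bound exchange factor that loads Ran with GTP, was at 78.4 ± 37.7 and 38.7 ± 11.9 CPM, with a log2 change of -0.93 ± 0.30 (limma adjusted p = 0.112). It passed the threshold without control 2 (adjusted p = 0.0324). Rangrf was at 6.35 ± 4.89 and 3.28 ± 0.930 CPM, and 79.2% of its words are shared with other genes, among them Slc25a35, which overlaps it on the opposite strand.

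**Figure D3:**
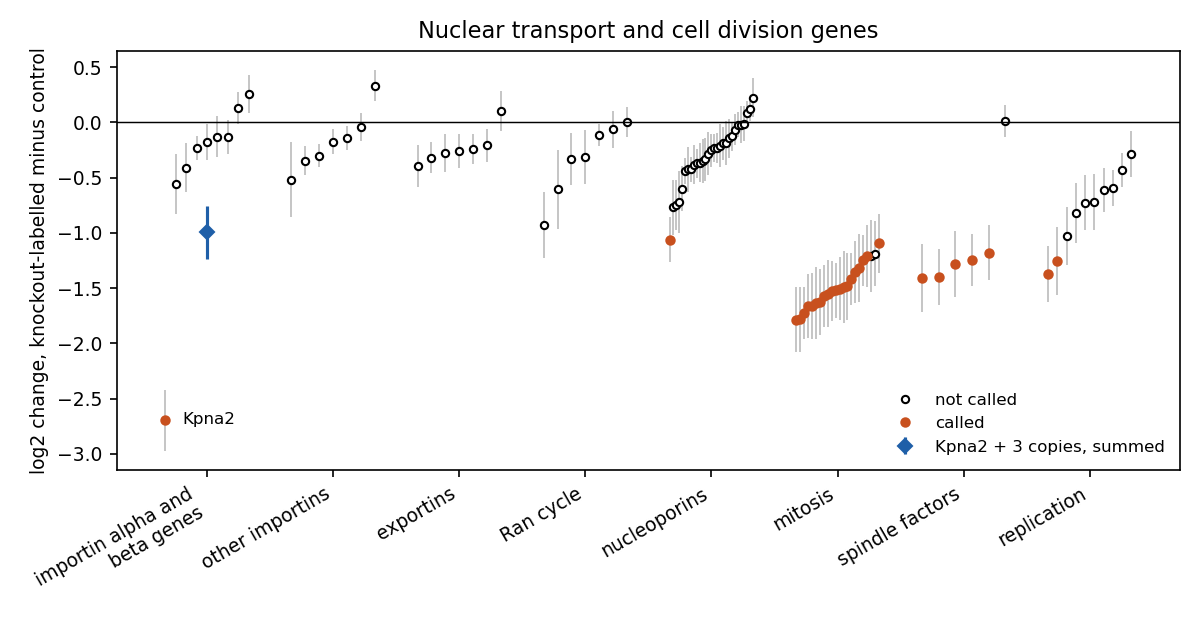
Log2 change of each gene, knockout-labelled minus control, on the log2(CPM + 1) scale with its SE, for the importin genes, other transport lists and cell division lists, called genes filled. Kpna2 is at -2.70 as deposited and at -0.996 summed with its copies (diamond), while 1 of 53 other transport genes and 20 of 22 mitosis genes are called.

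Genes of mitosis were lower in the knockout-labelled libraries, as was the Kpna2 row. Of 22 tested, 20 were called lower, where 2.32% of all genes were (median log2 change -1.51), and the count ran from 1 to 22 with single libraries left out, lowest without knockout-labelled replicate 2; it was 4 without control 1, 12 without control 3 and 7 and 5 without knockout-labelled replicates 1 and 4. For the spindle motor gene Kif11 the means were 105 ± 38.5 and 29.8 ± 5.80 CPM, a log2 change of -1.73 ± 0.24 (limma adjusted p = 0.00479). The checkpoint kinase gene Bub1 fell from 44.6 ± 17.4 to 12.1 ± 4.89 CPM, the spindle gene Hmmr from 57.0 ± 20.6 to 15.7 ± 5.71 CPM and Mki67, the proliferation marker Ki-67, from 252 ± 96.1 to 76.6 ± 25.3 CPM. Bub1 lost its call without knockout-labelled replicate 2, Hmmr also without control 1, and Mki67 without any of control 1 and knockout-labelled replicates 1, 2 and 4, where its limma adjusted p reached 0.0644. The part of this list in the level of Kpna2 was not tested. Like the transport, spindle factor, replication and cargo lists, it was chosen with earlier results of these data known. Counts and p-values of these lists are therefore given as a description.

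Kpna2 as deposited moved further than the mitosis list, and Kpna2 with its copies moved less. The log2 value of the row minus the mean of the mitosis genes was -0.52, -0.53, -0.55 and -0.82 in controls 1 to 4 and -1.53, -1.98, -2.69 and -1.07 in knockout-labelled replicates 1 to 4. The sum minus the same mean was 2.59, 2.699, 2.58 and 2.40 in the controls and 2.87, 2.90, 2.999 and 3.45 in the others. The row was thus lower relative to mitosis by 1.22 on average and the sum higher by 0.48, each with no overlap between the groups. Kpna2 was chosen for its difference between these groups and the sum after the data were seen, so nothing is read from either separation.

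**Figure D4:**
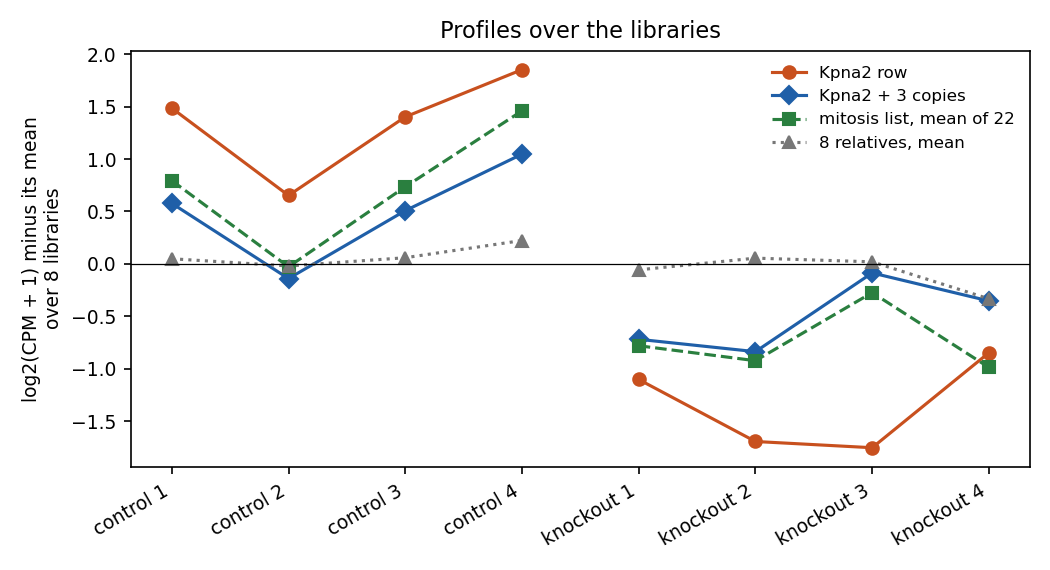
Log2(CPM + 1) minus its own mean over the 8 libraries, for the Kpna2 row, Kpna2 summed with its 3 copies, the mean of 22 mitosis genes and the mean of the 8 relatives. The sum and the mitosis genes share the dip in control 2 and the high point of the knockout-labelled libraries in replicate 3, where the Kpna2 row is at its lowest, and the mean of the relatives varies least.

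Spindle factors that importins bind were lower too, with 5 of 6 called lower beside 2.32% of all genes (median log2 change -1.26). Tpx2, which activates Aurora A once Ran-GTP frees it from importin, fell from 75.1 ± 28.9 to 29.9 ± 10.7 CPM, the spindle genes Nusap1 from 144 ± 49.9 to 52.8 ± 15.6 CPM and Dlgap5 from 41.5 ± 15.3 to 15.1 ± 6.19 CPM, and Tacc3, a partner of spindle microtubules, from 126 ± 47.3 to 50.5 ± 8.93 CPM. Numa1, the gene not called, was at 174 ± 26.1 and 175 ± 24.2 CPM. The count was 0 without control 1 or knockout-labelled replicate 1, 2 or 4, and 1 without control 3. The limma adjusted p of Tpx2 was 0.0410 and reached 0.133 with a library left out, and its call was also lost under quantile normalization and median-ratio scaling. In the replication list 2 of 10 were called lower, beside the same 2.32% (median -0.72): Rrm2, a ribonucleotide reductase gene, fell from 501 ± 163 to 191 ± 60.7 CPM, and Cdc45, of the replicative helicase, from 31.6 ± 16.4 to 12.1 ± 4.48 CPM. Rrm1 (245 ± 118 and 112 ± 22.6 CPM) and Mcm6 (204 ± 94.7 and 110.1 ± 29.8 CPM) were not called. The call of Cdc45 (limma adjusted p = 0.0495) was lost with a pseudocount of 5, with no filter on low values and under both other scalings, and Rrm1 (adjusted p = 0.0601) was called with array weights or without control 2 or 4. The replication count was 0 without control 1 or knockout-labelled replicate 1, 2 or 4, 1 without control 3, 4 without control 4 and 5 without control 2.

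Of 5 genes whose products are reported cargoes of importin alpha, 0 were called by limma, with 3 lower at an unadjusted p below 0.05, as were 11.7% of all genes (median log2 change -0.80). Myc, the transcription factor gene, stood at 79.7, 49.4, 47.9 and 292 CPM in the controls and at 25.6, 31.2, 46.6 and 45.1 CPM in the knockout-labelled libraries (log2 change -1.24 ± 0.47, limma adjusted p = 0.183). Control 4 was far above the other controls, and without it the log2 change was -0.66. The repair genes Brca1 and Nbn were at 15.3 ± 4.79 and 7.67 ± 0.782 CPM (adjusted p = 0.0601) and at 16.3 ± 4.90 and 8.93 ± 2.61 CPM (adjusted p = 0.0921), and the transcription factor gene E2f1 was at 8.16 ± 2.22 and 5.33 ± 1.86 CPM (adjusted p = 0.265). Brca1 passed the threshold with array weights and without control 2 (adjusted p = 0.0146).

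The genes whose profile was most like that of the Kpna2 row, by the root mean square difference of centred log2 values over the 8 libraries among 10601 genes, were Pdlim4 (0.473), Gm3550 (0.478), Slc23a4 (0.489), Art4 (0.513) and Rgl3 (0.546). All 5 were lower without overlap, Pdlim4 at 21.2 ± 9.79 and 2.86 ± 2.53 CPM and Art4 at 26.4 ± 7.95 and 3.83 ± 1.32 CPM. Such a difference follows from their choice by likeness to a row that is itself lower, and was not tested. The 22 mitosis genes ranked from 20 to 176 in likeness to the row, with a median of 55.5. For Kpna2 summed with its copies the closest genes, named after their values were seen, were Rdm1 (0.129), Ndc80 (0.131), Asf1b (0.144), Eme1 (0.148) and Tcf19 (0.150), of which Ndc80 encodes a kinetochore protein. The 22 mitosis genes ranked from 6 to 1612 in likeness to the sum, with a median of 269. Ranks against different profiles cannot be set side by side, because each depends on how many genes lie near that profile. The root mean square differences of the mitosis genes from the row ran from 0.659 to 0.909.

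The neighbouring genes of Kpna2 were set beside it by position. The 10 nearest tested genes on each side had midpoints from 628 kb below to 1936 kb above the transcription start of Kpna2, in chromosome coordinates. Of these 20, 0 were called lower and 3 higher, and their median log2 change was -0.01. Among all tested genes on chromosome 11, 4.99% were called and 3.20% were called lower. For 20 genes, 0 called lower is near the 2.32% of all genes called lower, while 3 called higher is above the 1.21% of all genes called higher. Gm11716 and Gm11713 lie inside the span of Pitpnc1, so the 20 are not all separate loci. Kdm6b, the gene named by the genotype labels, also lies on chromosome 11. A part of position in these changes was not tested. In either direction 7 of the 20 had an unadjusted p below 0.05, where 19.3% of all genes did. For Prr29, which rose, the means were 160 ± 35.4 and 288 ± 55.4 CPM, a log2 change of 0.85 ± 0.17 (limma adjusted p = 0.0238). Gm11716 rose from 6.42 ± 1.20 to 18.3 ± 7.89 CPM (adjusted p = 0.0322) and Cacng4 from 1.06 ± 0.239 to 5.11 ± 3.16 CPM (adjusted p = 0.0473). Leaving out control 1 or 3 or knockout-labelled replicate 1, 2 or 4 ended all 3 calls, and leaving out control 2 or 4, a pseudocount of 5, no filter on low values or quantile normalization ended that of Cacng4, whose limma adjusted p reached 0.131 with a library left out.

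Promoter sequence was read because genes of mitosis, also lower in the knockout-labelled libraries, are known to carry a cell cycle homology element near CCAAT boxes. The runs of Kpna2 and 2 receptor genes are printed. RefSeq (GRCm38.p6) gave promoters of 250 bases before to 50 after the start for 6 of the 9 genes, not for Kpna1, Kpna3 or Kpna6. Capitals mark TTTGAA, the core of the cell cycle homology element, and CCAAT, on either strand, in the bases before the first base of the annotated exon.
Kpna2 (chr11:106999542-106999775, minus strand): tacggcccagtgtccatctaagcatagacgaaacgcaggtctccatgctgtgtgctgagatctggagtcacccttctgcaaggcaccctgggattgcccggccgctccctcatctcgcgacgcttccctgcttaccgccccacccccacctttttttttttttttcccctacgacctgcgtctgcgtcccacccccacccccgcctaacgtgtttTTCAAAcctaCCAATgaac
Kpnb1 (chr11:97187893-97188142, minus strand): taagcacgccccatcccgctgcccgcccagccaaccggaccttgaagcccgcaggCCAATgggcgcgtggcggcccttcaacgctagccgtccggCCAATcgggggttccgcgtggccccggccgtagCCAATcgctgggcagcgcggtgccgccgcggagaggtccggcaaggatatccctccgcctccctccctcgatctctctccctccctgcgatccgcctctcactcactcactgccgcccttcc
Ipo7 (chr7:110018065-110018273, plus strand): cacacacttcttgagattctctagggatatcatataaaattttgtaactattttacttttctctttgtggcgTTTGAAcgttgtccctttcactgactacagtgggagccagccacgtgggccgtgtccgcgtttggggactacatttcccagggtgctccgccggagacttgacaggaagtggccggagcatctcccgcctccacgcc
Positions are counted from the RefSeq start. For Kpna2 and Ipo7 this start lies inside the GENCODE exon, so their printed runs of 234 and 209 bases end before it. The Kpna2 promoter held TTTGAA, on the opposite strand, at positions -35 to -30 from the RefSeq start and CCAAT at -25 to -21, with a further CCAAT at 6 to 10. Kpnb1 held 3 CCAAT and no TTTGAA, and Ipo7 a TTTGAA at -178 to -173 and no CCAAT. The promoters of Kpna4, Ipo5 and Tnpo1, not printed, held no TTTGAA, and each of these genes had a promoter with CCAAT. Both motifs occurred in 6.38% of 21263 protein-coding promoters of the same length, TTTGAA in 16.0% and CCAAT in 38.2%. Of the 8 promoters of the importin genes 2 held TTTGAA, 5 CCAAT and 1, that of Kpna2, both. Of 21 promoters of the mitosis list 16 held both. A match is only a run of letters, and binding there was not measured.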

How the data were processed

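RNA-seq was measured in 8 libraries, 4 per group by the labelled genotype. The authors deposited CPM for 20888 genes with 0.0001 added to each value, which was subtracted here, and a table of 218 genes with mean CPM and a signed fold (ratio of control over knockout). The submitters' processing notes name STAR 2.7.3a, Partek 10.0.22.0524 and the build mm10; for the counter, annotation and strand setting the sources used here give nothing. Between 74.0% and 76.2% of the values below 2 CPM were whole multiples of 1 read within 0.02 reads, which is too few to recover reads for a count model. Depth and the limit of 3 reads take only counting error into account.

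The 13840 genes that reached 1 CPM in 4 or more libraries were fitted with limma 3.58.1 (R 4.3.3) on log2(CPM + 1), two-sided, trended eBayes, Benjamini-Hochberg adjustment over all of them, called at an adjusted p below 0.05. Fold changes on this scale understate low genes. The fit was checked on simulated data. Transcript words of 50 bases came from GENCODE M21 and alignments from BLAST+ 2.17.0. For position, 98.1% of tested genes had coordinates. Copies of Kpna2 are table rows that share at least 10% of its words.

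The members and lists were chosen with earlier results of these data known. Named genes are the members, Kdm6b, called genes (or the 2 lowest p) of each transport list, the 4 largest changes of each companion list, called neighbours and the 5 closest profiles. Named after their values were seen were Gm10184, Gm10259, Gm12919, Gm6493, Numa1, Ipo13, Xist, Ddx3y, the myeloid markers and the closest profiles to the sum. So were Cd2, Cd3d, Cd3e, Cd3g, Gm11713 and Pitpnc1. Alternatives were other pseudocounts, filters, scalings, array weights, a replicate block, single libraries left out and the sum over copies.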

Additional observations from a re-analysis of the deposited data

Results flagged for a closer look

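Of 96 sets of 4 libraries examined, 10 had a highest or lowest library far from the other 3, by Dixon's 95% criterion, and chance gives about 1 in 20. In control 4 they were Kpna3 (74.2 CPM, the nearest other control at 56.4), Ipo5 (142.6 against 64.8 CPM), Nup62 (264 against 152 CPM), Rangrf (13.6 against 4.73 CPM), Myc (292 against 79.7 CPM) and the Kpna2 row minus the mitosis mean (-0.82 against -0.55 on the log2 scale). In knockout-labelled replicate 3 they were Bub1 (19.3 against 10.3 CPM) and Tacc3 (63.8 against 47.1 CPM). Prr29 in control 2 (213 against 146 CPM) and Pdlim4 in knockout-labelled replicate 4 (6.63 against 1.86 CPM) complete the list.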

How the results depend on the processing

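No named gene was called in opposite directions with single libraries left out, but many calls were lost or gained. Kpna2 summed with its copies lay past the threshold with all libraries. It fell short without control 1 or 3 or knockout-labelled replicate 1, 2 or 4, and nothing is read from this. The log2 ratio of Kpna2 to its relatives ran from -2.79 to -2.37 with single libraries left out and was -0.84 with the copies summed. With array weights 1313 genes were called, against 488, and 3 other transport genes. With single libraries left out, the counts ran from 81 to 670 over all genes, 0 to 2 for other transport genes, 1 to 33 for the companion lists (27 of 43 with all libraries) and 0 to 3 for the neighbours of Kpna2; each lowest count over all genes and the companion lists came without knockout-labelled replicate 2. Under median-ratio scaling 55.8% of calls were lower, and under quantile normalization 56.8%, against 65.8%. Same-numbered libraries gave correlations of their deviations from -0.102 to 0.176, and differently numbered ones from -0.261 to 0.355. No pairing by number was seen, but so few correlations cannot exclude one. With a replicate block 509 genes were called. Precision is limited by the 4 libraries per group, and Gm12919 by its level near that of 3 reads.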
